A study of Homo sapiens with 16 samples.

Results

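Histone lysine demethylases erase methyl marks from histone tails, and 10 of their mRNAs are described here: KDM1A, KDM2A, KDM2B, KDM3A, KDM3B, KDM4A, KDM4B, KDM5A, KDM5B and KDM6B. They were taken by gene name, and all 10 are among the 16324 genes that both of the authors' deposited tables list. RNA that co-purified with Strep-tagged proteins was sequenced (RIP-seq) from UM-SCC-1, a long-established cell line that derives from a squamous cell carcinoma of the head and neck. Cells had been infected with lentivirus carrying strep-Vec (the tag alone), strep-ALKBH5 or strep-RBM33 and selected with puromycin, so both baits were expressed from a transgene on top of the cells' own protein. ALKBH5 removes the methyl mark m6A from RNA, and RBM33 is an RNA-binding protein. The series holds 16 libraries, with 3 StrepTactin-XT pull-downs and 3 inputs each for vector and ALKBH5, and 2 pull-downs and 2 inputs for RBM33. Both deposited comparisons, 1 per bait, also carry the label siCtrl, taken here to mean control siRNA, although no sample is titled so.

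Each gene has a log2 fold change, its mean abundance as average log2 CPM (CPM scales counts to library size), an F statistic and p-values, but no value per library. Depth, standard deviations and the overlap of single libraries are therefore unknown here. As an error, an approximate standard error was computed as the absolute log2 fold change divided by the square root of F. Neither the contrast nor its direction is stated; each bait's pull-down set against the matching input is the likely one, and background binding seen with the vector would then not be subtracted. In the authors' deposited tables the ALKBH5 mRNA stood at 1.28 in the ALKBH5 comparison and the RBM33 mRNA at 3.41 in the RBM33 comparison, which leaves the sign unsettled, since the transgene is expressed in the cells of both fractions. Values keep the sign of the tables and are called positive or negative by it, and a gene is called at the authors' adjusted p under 0.05. Of 12 squamous keratinocyte markers, 10 were not listed in the authors' deposited tables, among them KRT5, KRT14 and TP63. EGFR was listed at an average log2 CPM of 4.61 and ITGB4 at 1.02 in the ALKBH5 comparison of the authors' deposited tables, so the defining keratins of the labelled cell type were absent from the genes tested. Of 9 markers of the embryonic kidney line HEK293, 7 were listed, with average log2 CPM from 1.79 (LHX1) to 8.10 (NEFL) and a median of 3.72 in the ALKBH5 comparison of the authors' deposited tables, where all genes had a median of 4.05. NEFM, at 7.72, and HOXD13, at 5.30, were also above that level of all genes in the authors' deposited table, and the other 4 were below it. Of 6 fibroblast, 5 immune cell and 4 endothelial markers, 3, 1 and 0 were listed in the authors' deposited tables. The part of cell identity in the values below was not tested.

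Histone lysine methylation is written by methyltransferases and read by proteins that open or close chromatin, and demethylases reverse it. KDM1A belongs to the amine oxidases that use FAD and acts on mono- and dimethylated H3K4. The other 9 carry a JmjC domain, which uses iron, oxygen and alpha-ketoglutarate, the same cofactors that ALKBH5 needs to demethylate RNA. KDM2 enzymes act on H3K36, KDM3 enzymes on H3K9, KDM4 enzymes on H3K9 and H3K36, KDM5 enzymes on H3K4 and KDM6 enzymes on H3K27.

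The sequences just upstream of the annotated starts of KDM6B and KDM1A, the members with the highest and the lowest value, are shown to set the RefSeq starts beside the starts of the tables' gene intervals. They come from RefSeq (GRCh38.p14), are written 5′ to 3′ on the gene's strand (+), and capitals mark CpG. All 10 members matched the RefSeq promoter table, with 16 starts in all.
KDM6B, chr17:7839817-7839916: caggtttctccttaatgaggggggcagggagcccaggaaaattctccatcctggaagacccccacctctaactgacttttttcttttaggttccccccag
KDM6B, chr17:7834117-7834216: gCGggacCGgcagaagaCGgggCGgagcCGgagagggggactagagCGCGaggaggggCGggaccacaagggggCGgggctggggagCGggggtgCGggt
KDM1A, chr1:23019368-23019467: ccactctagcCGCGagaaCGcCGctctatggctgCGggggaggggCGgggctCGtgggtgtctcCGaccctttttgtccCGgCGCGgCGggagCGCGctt
The KDM6B start nearest the table's gene start (13 bases away) had 0 CpG in the 100 bases before it, whereas the other RefSeq start had 11 and lies 5687 bases upstream of the interval that the tables list. The KDM1A stretch had 14. In windows of 300 bases around the start nearest to the table's, the members' CpG number had a median of 26.5 and ran from 2 to 44, beside a median of 14 over all 35116 RefSeq windows. RIP-seq does not measure promoters, and these windows are given as position and composition only.

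In the ALKBH5 comparison most JmjC demethylase mRNAs were positive and KDM1A was negative. Of the 10 members, 6 were positive, 1 was negative and 3 were not called in the authors' deposited table, beside 30.5% of all genes positive and 29.1% negative. Their median log2 fold change was 0.72 in the authors' deposited table, beside 0.03 over all genes and -0.08 over protein-coding genes. In the RBM33 comparison the authors' deposited table again had 6 members positive, 1 negative and 3 not called, beside 24% of all genes positive and 27% negative. The median there was 0.85, beside -0.02 over all genes and -0.13 over protein-coding genes of the authors' deposited table. Positive in both tables were 5 members (KDM2A, KDM3B, KDM5A, KDM5B and KDM6B), and KDM1A was negative in both. KDM4B was called for ALKBH5 alone, KDM4A for RBM33 alone, and KDM2B and KDM3A in neither. KDM4B lay close to the threshold with RBM33 (adjusted p = 0.0634, edgeR) in the authors' deposited table, and it passed (adjusted p = 0.0481) when the adjustment ran over the genes of at least median abundance. At an adjusted p under 0.01 the number of members called was the same in each table, while the share of all genes dropped to 24.4% positive and 23.6% negative with ALKBH5 and to 16.6% and 21% with RBM33. The members are abundant, at percentiles 76.2 to 95.2 of all genes with ALKBH5 and 67.8 to 95.5 with RBM33. No share matched for abundance was computed, and the part of abundance in these counts was not tested. With a minimum of 1 log2 unit, 3 members were positive and 1 negative with ALKBH5, beside 21% and 16.2% of all genes. The same minimum left 4 positive and 0 negative with RBM33, beside 17.1% and 16.7%, because KDM1A stands at -0.92 in the authors' deposited table.

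**Figure D1:**
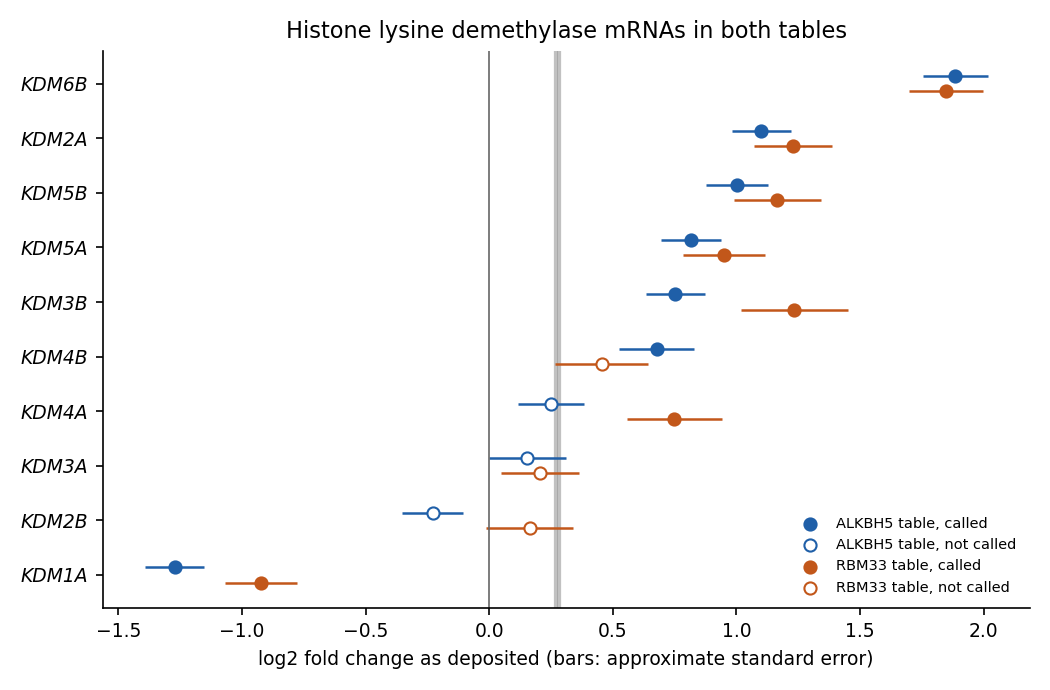
Log2 fold change (x axis, as deposited) of each of the 10 demethylase mRNAs in the ALKBH5 table (blue) and the RBM33 table (orange), with bars of 1 approximate standard error. Filled points passed an adjusted p under 0.05. The grey band near 0.28 marks the medians of protein-coding genes within the members' range of listed length. KDM6B lies farthest right, near 1.9 in both tables, and KDM1A alone lies left of -0.9.

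KDM1A, also called LSD1, is the H3K4 demethylase of the CoREST repressor complex (ENSG00000004487, chr1:23019443-23083689, + strand, hg38). It stood at -1.27 (approximate standard error 0.12, adjusted p = 1.2e-06, edgeR) in the authors' deposited table for ALKBH5, a 2.42-fold difference. For RBM33 the authors' deposited table put it at -0.92 (approximate standard error 0.15, adjusted p = 0.000313, edgeR). Both values lie many errors below 0, and KDM1A was higher than only 12.0% and 22.7% of protein-coding genes in the authors' deposited tables of ALKBH5 and RBM33.

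KDM6B, or JMJD3, removes methyl groups from H3K27, the mark of Polycomb silencing (ENSG00000132510, chr17:7839904-7854796, + strand). Its log2 fold change was 1.88 (approximate standard error 0.13, adjusted p = 1.11e-07, edgeR) in the authors' deposited table for ALKBH5, which is 3.69-fold. In the authors' deposited table for RBM33 it was 1.85 (approximate standard error 0.15, adjusted p = 6.53e-06, edgeR), or 3.60-fold. It exceeded 94.5% of protein-coding genes with ALKBH5 and 95.4% with RBM33 in the authors' deposited tables, and every other member stood at 1.23 or lower.

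The H3K4 demethylases with a JmjC domain went the opposite way from KDM1A, although they share its histone residue. KDM5A, first found as a partner of the retinoblastoma protein (chr12:280057-389320, - strand), had 0.82 (adjusted p = 6.72e-05) with ALKBH5 and 0.95 (adjusted p = 0.000625) with RBM33 in the authors' deposited tables. KDM5B, its close relative and a gene often raised in tumours (chr1:202724495-202808487, - strand), had 1.00 (adjusted p = 1.46e-05) and 1.17 (adjusted p = 0.000211) in the authors' deposited tables. In each table the KDM5A and KDM5B values differed by less than 2 approximate standard errors, so their order is not resolved. Both lay within the quartiles of protein-coding genes of similar listed length with each bait, whereas KDM1A, a shorter entry, lay below its lower quartile, as described below. The part of length in this contrast was not tested.

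The H3K36 demethylases KDM2A and KDM2B, which bind unmethylated CpG DNA through a CXXC zinc finger, stood apart from each other. KDM2A (chr11:67119263-67258082, + strand) had 1.101 (approximate standard error 0.12, adjusted p = 3.8e-06) with ALKBH5 and 1.23 (0.16, adjusted p = 8.25e-05) with RBM33 in the authors' deposited tables. KDM2B, which brings the Polycomb complex PRC1.1 to CpG islands (chr12:121429096-121581023, - strand), had -0.23 (0.12, adjusted p = 0.127) and 0.16 (0.18, adjusted p = 0.467) in the authors' deposited tables. KDM2A was thus called and KDM2B was not, and the gap between them is wider than 1 log2 unit in each of the authors' deposited tables.

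The H3K9 enzymes of the KDM3 family also stood apart. KDM3B (chr5:138352685-138437028, + strand) had 0.75 (approximate standard error 0.12, adjusted p = 0.000121) with ALKBH5 and 1.23 (0.22, adjusted p = 0.000648) with RBM33 in the authors' deposited tables. KDM3A, which is induced in hypoxia (chr2:86440647-86492716, + strand), had 0.15 (0.16, adjusted p = 0.417) and 0.21 (0.16, adjusted p = 0.298), within 2 errors of 0 in the authors' deposited tables. The KDM4 members KDM4A and KDM4B, which act on trimethylated H3K9 and H3K36, were each called in a different comparison. KDM4B (chr19:4969113-5153598, + strand) was positive for ALKBH5 at 0.68 (0.15, adjusted p = 0.0016) and stood at 0.45 (0.19, adjusted p = 0.0634) with RBM33 in the authors' deposited tables. KDM4A (chr1:43650149-43705518, + strand) stood at 0.25 (0.13, adjusted p = 0.124) with ALKBH5 and was positive for RBM33 at 0.75 (0.19, adjusted p = 0.00688) in the authors' deposited tables.

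A call in 1 table alone does not show a difference between the baits. The RBM33 value minus the ALKBH5 value was 0.50 for KDM4A, 2.13 times the combined approximate standard error of 0.23 from the authors' deposited tables. KDM4A was the only member beyond 2 combined errors, a distance that 9.5% of all genes passed. Its values are uncertain, because its span lies wholly inside another listed gene on the same strand, as described below. KDM3B differed by 0.48 (1.94 errors), KDM2B by 0.39 (1.83) and KDM1A by 0.35 (1.86), and KDM4B by -0.22 (0.93) between the authors' deposited tables. When each table was centred on its median of protein-coding genes, an alternative chosen after seeing the data, 4 members (KDM1A, KDM2B, KDM3B and KDM4A) passed that distance, beside 9.3% of all genes. KDM6B differed by -0.04, with a combined error of 0.20. These errors assume that the tables share no library, which is not stated, and no p-value was computed for the difference.

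**Figure D2:**
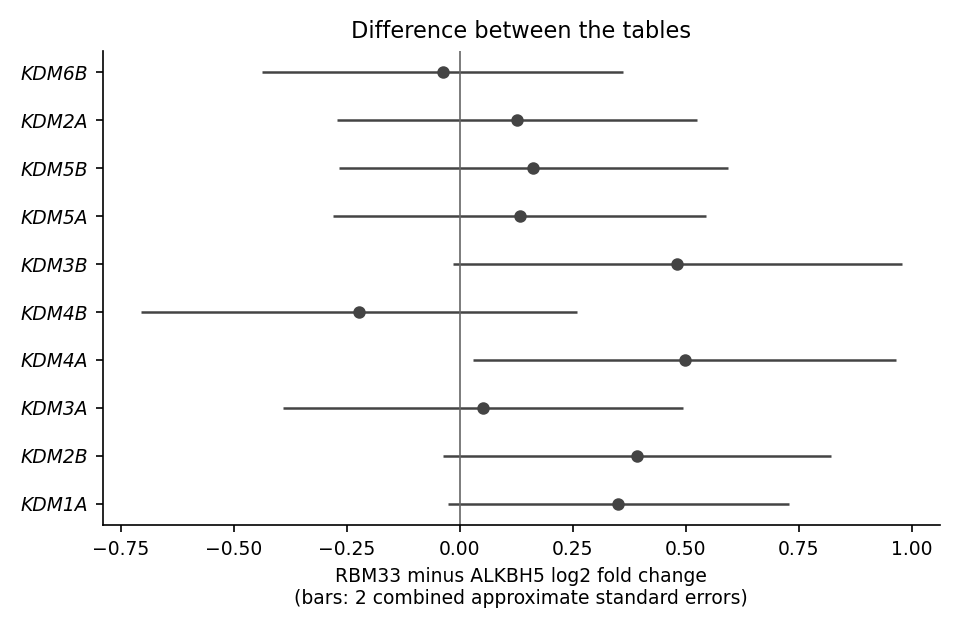
RBM33 minus ALKBH5 log2 fold change (x axis) for each demethylase mRNA, with bars of 2 combined approximate standard errors. Only the bar of KDM4A stays clear of 0, and those of KDM3B, KDM2B and KDM1A reach just past it.

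Listed gene length moves with the values and differs among the members. The length column does not describe 1 transcript, and the members' entries ran from 5184 bases (KDM4A) to 24899 bases (KDM5B). Across all protein-coding genes, Spearman's rho of the log2 fold change with listed length was 0.41 with ALKBH5 and 0.45 with RBM33 in the authors' deposited tables; genes are not independent replicates. Over the 10 members the same rho was 0.08 and -0.13 in the authors' deposited tables. Protein-coding genes within the members' length range had medians of 0.28 and 0.27 in the authors' deposited tables of ALKBH5 and RBM33. In that range 40.6% were positive and 21.9% negative with ALKBH5, and 33.3% were positive and 19.3% negative with RBM33. Genes of that length were thus more often positive than genes at large, and the part of length in the members' median was not tested.

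Each member was also set beside its length peers, the 660 or 661 protein-coding genes in the same of 20 equal bins of listed length. For ALKBH5, KDM6B and KDM2A were above the upper quartile of their bins, KDM1A and KDM2B below the lower quartile, and 6 members lay between in the authors' deposited table. For RBM33, KDM6B, KDM3B, KDM2A and KDM4A were above the upper quartile, KDM1A below the lower, and 5 lay between in the authors' deposited table. KDM6B exceeded its bin median by 1.66 and 1.59 with ALKBH5 and RBM33 in the authors' deposited tables. KDM5B, positive in both, was 0.16 and 0.33 above the median of the longest bin (0.84 and 0.83) in the authors' deposited tables, which is close to what long genes had in general. KDM5A was 0.30 and 0.37 above the median of its bin (0.52 and 0.58), within the quartiles. KDM1A was 1.28 and 0.82 below the median of its bin in the authors' deposited tables.

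**Figure D3:**
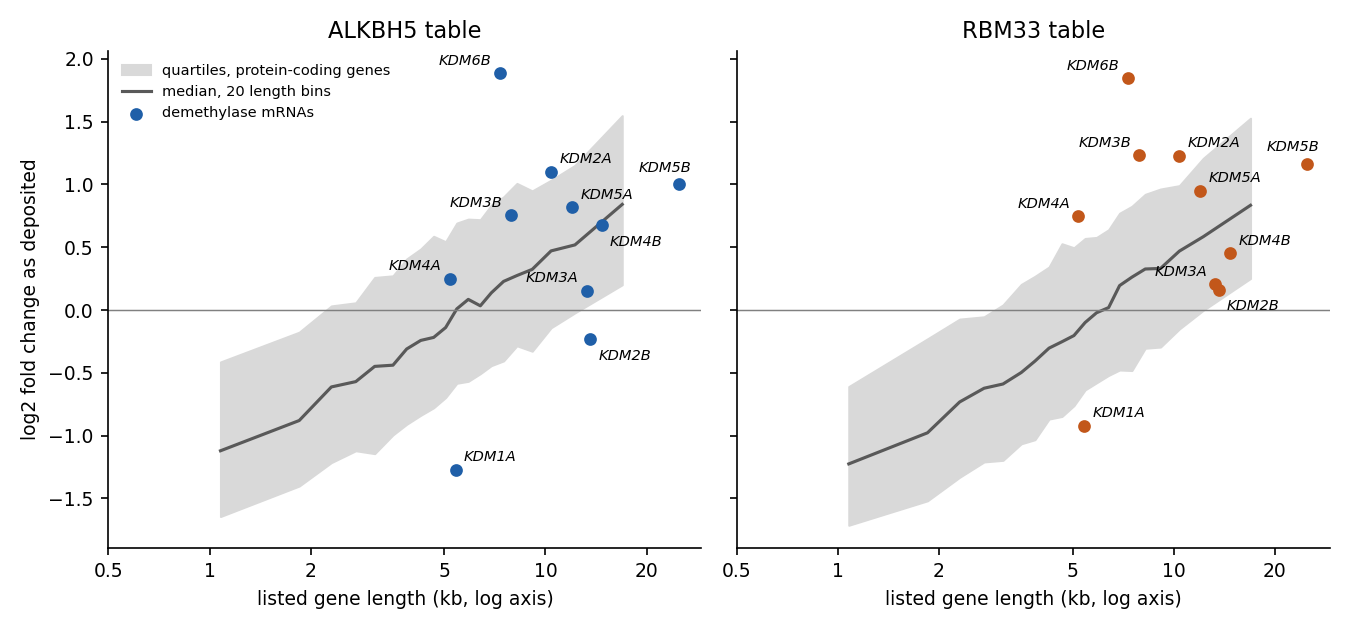
Log2 fold change (y axis, as deposited) against listed gene length (x axis, kb, log scale) for the 10 demethylase mRNAs (points), with the median (line) and quartiles (grey) of protein-coding genes in 20 length bins, drawn at each bin's median length. The line climbs with length in both panels. KDM6B lies above the grey area and KDM1A below it in both.

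KDM1A had the highest average abundance of the members per listed length. The average runs over all libraries of each comparison, so it probably mixes pull-down and input and is not the level in cells. With ALKBH5 the log2 fold change was -1.27 for KDM1A and 1.88 for KDM6B, so their distance within 1 fraction is not given by this average. On the scale of average log2 CPM per kilobase of listed length, KDM1A was at 5.0, KDM6B at 3.43, KDM4A at 3.32, KDM2A at 3.09 and KDM3B at 2.94 in the authors' deposited table for ALKBH5. KDM2B followed at 2.55, KDM5A at 2.39, KDM3A at 1.95, KDM4B at 1.66 and KDM5B at 0.83 in the authors' deposited table. In the authors' deposited table for RBM33 the ends of the order were the same, with KDM1A at 5.06 and KDM5B at 0.71. No spread over libraries is available, so neighbours in this order cannot be told apart. Without the length correction, the members' average log2 CPM ran from 5.47 to 7.44 for ALKBH5 in the authors' deposited table, above the median of 4.05 over all genes. None of the members sits near the low end of the table.

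**Figure D4:**
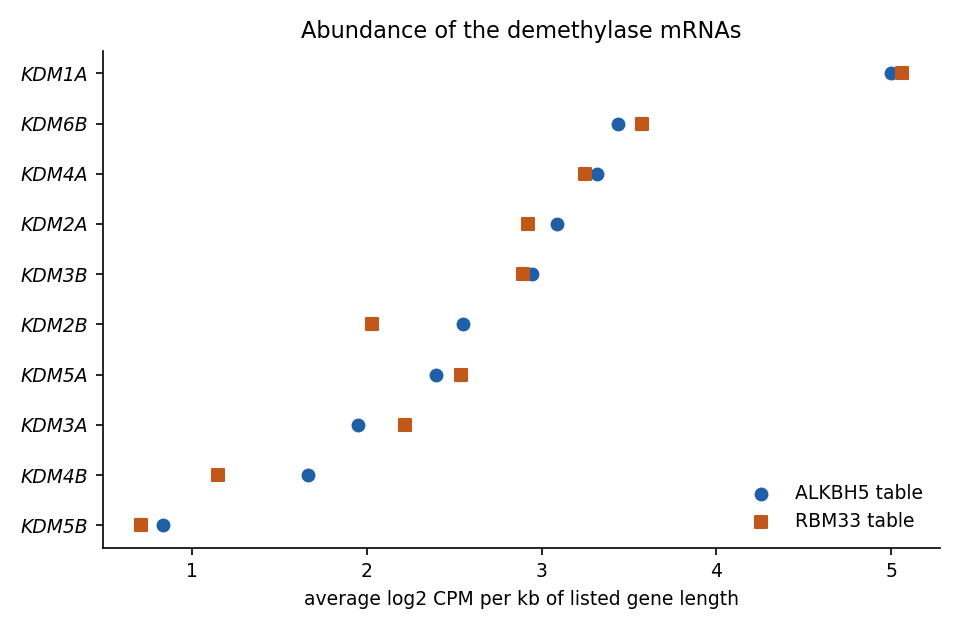
Average log2 CPM per kilobase of listed gene length (x axis) of each demethylase mRNA in the ALKBH5 table (circles) and the RBM33 table (squares); the tables give no spread. KDM1A is highest, near 5, and KDM5B lowest, below 1, in both tables. The average runs over all libraries of each comparison and is not the level in 1 fraction.

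Overlap with other listed genes touches 3 members. The genomic span of KDM4A, 55370 bases, lies wholly inside AL451062.2 on the same strand, which starts at the same base and stood at 0.40 (adjusted p = 0.0653) and 0.67 (adjusted p = 0.0224) with ALKBH5 and RBM33 in the authors' deposited tables. KDM4A-AS1, a long noncoding RNA on the opposite strand, overlaps it by 20396 bases and had 2.18 (adjusted p = 0.00122) with ALKBH5 and 1.03 (adjusted p = 0.142) with RBM33 in the authors' deposited tables. Whether reads were counted by strand is not given in the sources used here, and such counting would not separate KDM4A from AL451062.2. The KDM4A values are therefore uncertain. RNF34 overlaps KDM2B by 1528 bases and CCDC77 overlaps KDM5A by 48 bases, both on the opposite strand. RNF34 stood at -0.41 (adjusted p = 0.0201, edgeR) with ALKBH5 and -0.19 (adjusted p = 0.383, edgeR) with RBM33 in the authors' deposited tables. With the strand setting unknown, how far these overlaps enter the KDM2B and KDM5A values is unknown too. No other gene of the authors' deposited tables overlaps the remaining 7 members.

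The rest of the demethylase family held values of both signs. Of 13 further demethylases, 11 were listed, and RIOX1 and HR were not. Of these, the authors' deposited tables had 6 positive and 2 negative with ALKBH5 (median 0.61), and 5 positive and 2 negative with RBM33 (median 0.58). The shares of all genes in the authors' deposited tables were 30.5% positive and 29.1% negative with ALKBH5 and 24% and 27% with RBM33. Among protein-coding genes within the members' length range they were 40.6% and 21.9% with ALKBH5 and 33.3% and 19.3% with RBM33. The highest called values were those of KDM6A, the X-linked relative of KDM6B, at 1.43 for ALKBH5, and of PHF8, an H3K9 demethylase with a PHD finger, at 1.47 with RBM33 in the authors' deposited tables. The lowest were KDM1B, the only other FAD-dependent histone demethylase, at -0.89 (adjusted p = 0.000491) for ALKBH5, and RIOX2, a nucleolar JmjC protein, at -0.93 (adjusted p = 0.000301) with RBM33 in the authors' deposited tables. KDM1B stood at -0.93 (adjusted p = 0.00174) for RBM33, so in the authors' deposited tables both amine oxidases were negative each time. The JmjC protein RIOX2 was negative with ALKBH5 too, where the authors' deposited table has it at -0.74 (adjusted p = 0.00183, edgeR). Among the 19 listed JmjC demethylases, members included, the authors' deposited table had 12 positive and 1 negative with ALKBH5. Beside them stood 30.5% and 29.1% of all genes, and 40.6% and 21.9% of protein-coding genes within the members' length range. Some of the 19 are shorter than that range. With RBM33 the authors' deposited table had 11 positive and 1 negative, beside 24% and 27% of all genes. Protein-coding genes within the members' length range had 33.3% and 19.3% there. This grouping by catalytic class was set out after the values had been seen, the other class holds 2 genes, and the difference between the classes was not tested. All 3 listed KDM5 genes and both KDM6 genes were positive with both baits in the authors' deposited tables, with KDM5C at 0.55 and 0.58.

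The partners of these enzymes went both ways. Their counts stand beside 30.5% of all genes positive and 29.1% negative with ALKBH5 and 24% and 27% with RBM33 in the authors' deposited tables. No test set the lists against those shares. Of 12 CoREST partners of KDM1A, the authors' deposited tables had 5 positive and 3 negative for ALKBH5 (median 0.33) and 4 positive and 3 negative for RBM33 (median 0.31). HDAC2, a histone deacetylase of that complex, was negative, as KDM1A was, at -1.97 with ALKBH5 and -1.72 with RBM33 in the authors' deposited tables. HDAC1, the other deacetylase in the list, was negative nearer to no change, at -0.77 with ALKBH5 and -0.59 with RBM33. The zinc finger protein ZNF217 had the highest value for ALKBH5, 1.66, and ZMYM2 for RBM33, 1.19, in the authors' deposited tables. Of 9 PRC1.1 partners of KDM2B, 2 were positive and 4 negative in each of the authors' deposited tables, with medians of -0.36 and -0.46. The corepressor BCORL1 stood at 1.36 and 1.75, whereas RNF2, a ubiquitin ligase of the complex, was lowest for ALKBH5 at -1.66 and SKP1 for RBM33 at -1.57 in the authors' deposited tables. RING1, the alternative ligase in the list, was not called with either bait, at 0.16 with ALKBH5 and 0.03 with RBM33. Of 11 SIN3 partners of KDM5A and KDM5B, 5 were positive with ALKBH5 and 4 with RBM33, and 4 and 3 were negative, in the authors' deposited tables. EMSY was the highest at 1.45 and 1.73, and the lowest were MORF4L1, a chromodomain protein, at -1.96 with ALKBH5 and SAP30 at -1.91 with RBM33 in the authors' deposited tables.

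The enzymes that write the marks were measured in the same way. Of 19 histone lysine methyltransferases outside the H3K4 family, 8 were positive with each bait, and 5 (ALKBH5) and 4 (RBM33) were negative, with medians of 0.08 and 0.33, in the authors' deposited tables. Beside them, 30.5% of all genes were positive and 29.1% negative with ALKBH5, and 24% and 27% with RBM33. Of protein-coding genes within the members' length range, 40.6% and 21.9% were positive and negative with ALKBH5 and 33.3% and 19.3% with RBM33, close to the shares of this list with ALKBH5. EZH1, which writes the H3K27 mark that KDM6B removes, led at 2.48 (adjusted p = 2.09e-07) and 1.93 (adjusted p = 2.53e-05) in the authors' deposited tables. KMT5A, which monomethylates histone H4, was lowest at -1.10 and -1.07 in the authors' deposited tables.

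**Figure D5:**
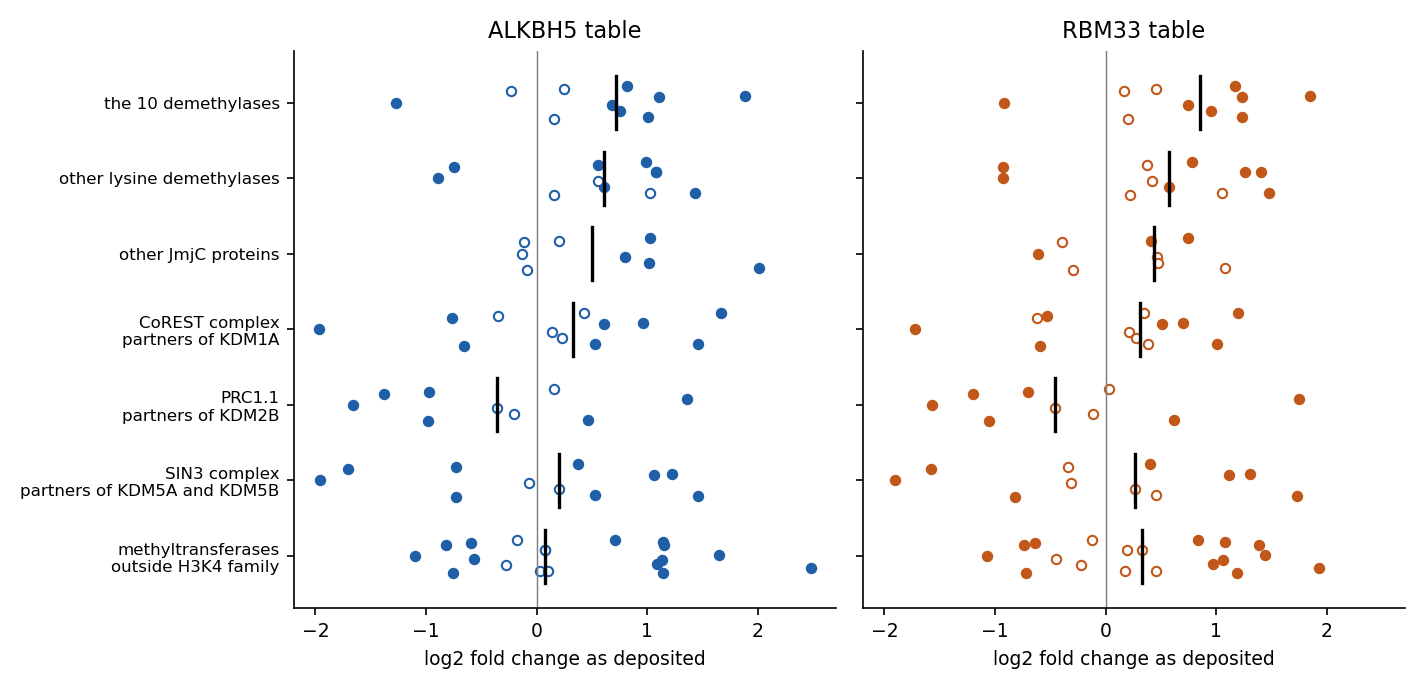
Log2 fold change (x axis, as deposited) of every listed gene in the demethylase list and 6 related lists, for ALKBH5 (left) and RBM33 (right). Filled points passed an adjusted p under 0.05, black bars are list medians, and vertical position within a list carries no meaning. The demethylases have the rightmost median in both panels, 0.72 and 0.85, and the PRC1.1 partners the leftmost, -0.36 and -0.46. The demethylases also have the longest median listed length, 11205 bases, beside 5707 to 8727 bases in the related lists. The part of length in this order was not tested.

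The 3 protein-coding genes nearest to the members' pair of medians, by Euclidean distance over the values of both tables, were MTARC2, NUTM2A and VPS52. Their values ran from 0.71 to 0.72 with ALKBH5 and from 0.84 to 0.85 with RBM33 in the authors' deposited tables, and likeness over 2 values says little.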

How the data were processed

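The submitters' processing notes name HISAT2 2.1.0 and the build hg38, cutadapt 1.18, Subread 1.6.4 with featureCounts, and edgeR 3.24.3. The sources used here do not give the contrast, annotation release, low-count filter or strand setting. The authors' deposited tables hold, per the file headers, log2 fold changes, average log2 CPM, an F statistic (a score without fixed range), p-values with their Benjamini-Hochberg adjustment, and gene length. Recomputing that adjustment over all 16324 genes gave the deposited values.

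The planned count model was not possible without values per library, so the authors' adjusted p under 0.05 was the call. Replicates are not labelled as separate cultures, so the p-values may measure technical spread only. Members and lists were chosen with earlier results of these data known. Named genes were all members and, per related list, the highest and lowest called gene in each table, with overlapping genes and the 3 nearest in value. KDM5C, HDAC1, RING1, the second KDM1B, RIOX2 and JMJD7 values and the markers were named outside that rule, after their values were seen. Calculations used pandas 2.3.3 and were tested on simulated data. Alternatives were a stricter p, a minimum size, other sets for the adjustment and other centres.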

Additional observations from a re-analysis of the deposited data

How the results depend on the processing

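The positive and negative member counts stayed within 1.5 times under an adjusted p of 0.01 and under adjustment over protein-coding genes or over genes of at least median abundance. The last gave 7 positive members in place of 6 for RBM33, with KDM4B added (adjusted p = 0.0481), so that its call with ALKBH5 alone depends on the genes adjusted over. With a minimum of 1 log2 unit, positive members fell to 3 for ALKBH5 and negative members to 0 for RBM33, where KDM1A stands at -0.92. Relative to protein-coding genes within the members' range of listed length, the members' median log2 fold change was 0.44 for ALKBH5 and 0.57 for RBM33. The median listed length was 11205 bases for the members and 7760.5 bases for those genes, so this centre does not match length fully. The members' mean log2 fold change, in place of the median, was 0.51 for ALKBH5. Relative to those genes KDM3A (-0.12 and -0.07), KDM4A for ALKBH5 (-0.03) and KDM2B for RBM33 (-0.11) changed sign, and none of these values had been called. After centring, 4 members in place of 1 passed 2 combined errors between the tables, beside 9.3% in place of 9.5% of all genes. No paired analysis was possible because neither table gives values for single libraries, and no replicate could be left out for the same reason.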

Other observations

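Proteins with a JmjC domain that are not classed as histone demethylases were all listed, 8 in number. With ALKBH5 the authors' deposited table had 4 positive and 0 negative (median 0.50, edgeR calls at an adjusted p under 0.05), beside 30.5% of all genes positive and 29.1% negative. JMJD7, a lysine hydroxylase for which a readthrough gene, JMJD7-PLA2G4B, is also listed, had the highest value at 2.01 (approximate standard error 0.38). Its average log2 CPM there was 2.14, below the median of 4.05 over all genes. HIF1AN, the asparagine hydroxylase that restrains hypoxia-inducible factor, had the lowest called value at 0.80 in the authors' deposited table. With RBM33 it was 2 positive and 1 negative (median 0.44) in the authors' deposited table, beside 24% of all genes positive and 27% negative. JARID2, a JmjC protein of Polycomb complexes without known demethylase activity, stood at 0.75 and JMJD4 at -0.61 in the authors' deposited table. JMJD7 was not called with RBM33 (1.08, adjusted p = 0.0946, edgeR).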
